A study of Mus musculus with 9 samples.

Results

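The miR-17-92 cluster and its paralog miR-106b-25 were followed in the tibialis anterior (TA) muscle through 10 mature miRNAs, taken by name as the main arms of both clusters. They are mmu-miR-17-5p, mmu-miR-18a-5p, mmu-miR-19a-3p, mmu-miR-20a-5p, mmu-miR-19b-3p and mmu-miR-92a-3p of miR-17-92, and mmu-miR-106b-5p, mmu-miR-106b-3p, mmu-miR-93-5p and mmu-miR-25-3p of miR-106b-25. The count tables list 1915 mature miRNAs, and all 10 arms were among the 304 that passed the expression minimum of more than 32 counts in at least 1 library. Small RNA libraries were made from 4 control mice (C1 to C4), injected with PBS, and 5 mice carrying tumors of Lewis Lung Carcinoma cells (LLC, a mouse lung cancer cell line; L1, L2, L3, L5 and L6). Tumor-bearing mice received 750000 cells in each flank, and muscles of both groups were collected at 22 days, when the LLC group had cachexia, the loss of muscle and fat that accompanies cancer. No genotype beyond the strain is given for either group. The mice are named as C57BL/6J and 10 weeks old in the sample labels, and as C57BL/10 males of 8 weeks in the design text. The study compared the groups to find miRNAs that change with muscle wasting, and here the question is whether these arms differed between the groups and whether the arms of a cluster varied together.

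The library totals were 4992339 to 6548379 counts in the control group and 6216566 to 7833161 in the LLC group. Values are CPM, the counts scaled to a common library total, after TMM scaling in edgeR, a method that rescales libraries so that most miRNAs match. The scaling factors were lowest in L1 (0.876) and L5 (0.762), against 0.953 to 1.15 in the other 7 libraries, so fold changes, 5p to 3p ratios and median correlations that moved by over 1.5 times without both mice are also given that way. L5 lay farthest from the rest of its group, by 0.48 in root mean square log2 CPM, against 0.34 to 0.38 for the other LLC mice and 0.24 to 0.32 for the control mice. Of 6 miRNAs known to mark muscle fibres, 5 were expressed, at a summed level of 21902 to 30874 CPM in the control mice and 20862 to 25266 CPM in the LLC mice. The exception was miR-206-3p, which had 5 counts over all libraries and was at 0 in 6 of them. Most of the summed level was miR-133a-3p, at 17650 to 25203 CPM in the control mice and 17440 to 21047 CPM in the LLC mice. Next was miR-133b-3p, at 3992 to 5644 and 3404 to 4747 CPM. The other expressed markers had low read counts, with control and LLC means of 20.9 and 17.4 CPM for miR-1a-3p (rank 190). These means were 5.26 and 3.72 CPM for miR-499-5p, and 4.95 and 3.68 CPM for miR-208b-3p. Whether capture or mapping of reads lowered the counts of these markers was not tested.

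A miRNA is cut from a hairpin precursor, and 1 strand of the hairpin, the 5p or the 3p arm, usually joins the silencing complex while the other is degraded. The miR-17-92 transcript carries its hairpins side by side and is driven by MYC and E2F factors in dividing cells, where its products hold down Bim and the cell cycle inhibitor p21. The miR-106b-25 cluster lies within Mcm7, a gene of the DNA replication helicase, and shares the seeds of miR-17-5p and miR-92a-3p with miR-17-92. The seed, bases 2 to 8 of the mature miRNA, largely sets which mRNAs are recognised.

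The mature sequences show which arms can share targets and which can be told apart by a read. They were taken from RefSeq on GRCm38.p6, where all 10 arms matched, are written 5′ to 3′, and carry the seed in capitals. The first 4 share a seed across both clusters, the next stands alone, and the pairs of miR-19 and of miR-92a with miR-25 share a seed each.
miR-17-5p: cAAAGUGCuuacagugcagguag
miR-20a-5p: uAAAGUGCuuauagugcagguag
miR-106b-5p: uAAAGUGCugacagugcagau
miR-93-5p: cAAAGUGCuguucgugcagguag
miR-18a-5p: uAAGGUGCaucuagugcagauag
miR-19a-3p: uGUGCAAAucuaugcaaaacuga
miR-19b-3p: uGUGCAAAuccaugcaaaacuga
miR-92a-3p: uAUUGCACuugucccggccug
miR-25-3p: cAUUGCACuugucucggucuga
miR-106b-3p: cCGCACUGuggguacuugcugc

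Counted from the 5′ end, miR-19a-3p and miR-19b-3p differed at 1 position (U11C, the base of miR-19a-3p first). The arms miR-17-5p and miR-20a-5p differed at 2 positions (C1U and C12U, the base of miR-17-5p first). Over the 21 positions they share, miR-92a-3p and miR-25-3p differed at 3 (U1C, C14U and C18U, the base of miR-92a-3p first), and miR-106b-5p and miR-93-5p at 5. Reads were mapped with no mismatch allowed in the first 8 bases and every best match kept, so near copies could share reads. The closest outside relative of miR-17-5p is miR-106a-5p, with a single difference (U10A, the base of miR-17-5p first):
miR-106a-5p: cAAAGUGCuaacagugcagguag
This relative held 0 to 6 counts per library against 162 to 323 for miR-17-5p, which is 1.03% of the miR-17-5p total. miR-19a-3p held 7.77 to 10.6% of the miR-19b-3p count in the 9 libraries. How many miR-19a-3p counts came from miR-19b-3p reads was not tested.

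On GRCm38.p6 the 6 hairpins of miR-17-92 span 836 bases of the forward strand of chromosome 14 (chr14:115043671-115044506). All 6 lie in an exon of the long noncoding RNA gene Mir17hg (chr14:115042879-115046727). The 3 hairpins of miR-106b-25 span 498 bases of the reverse strand of chromosome 5 (chr5:138165321-138165818), inside Mcm7 (chr5:138164583-138172422). Mir106b is intronic in both Mcm7 transcripts that cover it, whereas Mir93 and Mir25 each overlap an exon in 1 of 3 transcripts. The mature miR-19b-3p and miR-92a-3p are also made by hairpins on the X chromosome, Mir19b-2 and Mir92-2, so for these arms the locus cannot be told apart from the counts.

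The most abundant arm was miR-25-3p, at 583 ± 87.7 CPM in the control mice (SD, n = 4) and 671 ± 133 CPM in the LLC mice (SD, n = 5), which placed it at rank 55 of the 304 expressed miRNAs. miR-93-5p followed at 267 ± 32.7 and 246 ± 24.9 CPM, rank 77. Within miR-17-92, miR-19b-3p led with 124 ± 21.7 and 150 ± 28.0 CPM, rank 96. The arms thus ran from the upper to the lower part of the muscle miRNA profile. The lowest was miR-18a-5p at 3.99 ± 0.276 and 4.97 ± 1.89 CPM, rank 277, with 21 to 39 counts per library. Mature lengths were 21 to 23 bases, and no length correction was made. Whether the libraries captured the different sequences equally well was not tested, so comparisons between arms are of read counts. In the control mice the order by level was miR-25-3p, miR-93-5p, miR-19b-3p, miR-20a-5p, miR-92a-3p, miR-17-5p, miR-106b-3p, miR-106b-5p, miR-19a-3p and miR-18a-5p, and of these neighbours the range of the 4 mice overlapped for miR-106b-3p and miR-106b-5p alone. In the LLC mice that pair did not overlap, and the ranges overlapped between miR-20a-5p and miR-92a-3p, between miR-92a-3p and miR-17-5p, between miR-106b-3p and miR-19a-3p, and between miR-19a-3p and miR-106b-5p. Counting error was a visible part of the spread for miR-18a-5p, where it alone gives a coefficient of variation of 18.6% against an observed 6.91% in the control mice and 38.1% in the LLC mice. For miR-25-3p counting error gives 1.54%, against an observed 15.0% and 19.8%.

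**Figure D1:**
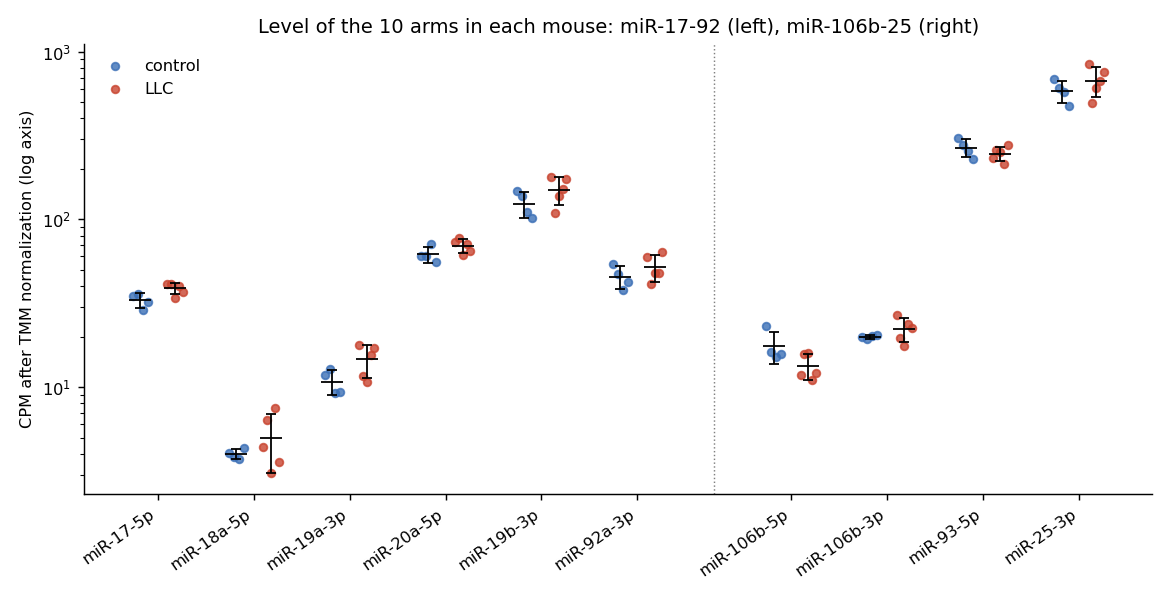
CPM after TMM normalization (log axis) of the 10 arms, with 1 point per mouse for 4 control and 5 LLC mice, and the mean ± SD as bars. The arms run from 3.06 CPM for miR-18a-5p to 838 CPM for miR-25-3p, and for each of the 10 arms the control and LLC points overlap.

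In 8 of the 9 hairpins 1 arm held nearly all counts. Over all libraries miR-20a-5p, miR-19b-3p, miR-93-5p and miR-25-3p made up at least 99.7% of the counts of their hairpin, and miR-19a-3p 99.0%. The arm miR-17-5p held 93.4%, miR-92a-3p 91.4% and miR-18a-5p 89.0%. The Mir106b hairpin stood apart from the other 8, because miR-106b-3p held 57.7% of its counts in total and between 46.2 and 69.6% in single libraries. Of the 8 minor arms of these hairpins, 1 passed the expression minimum, miR-92a-1-5p at 4.84 ± 0.705 CPM in the control mice and 4.46 ± 0.691 CPM in the LLC mice.

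Seed families were carried mostly by these arms. The 4 arms with the seed of miR-17-5p made up 99.5 to 99.9% of the CPM of all mature miRNAs with that seed, which summed to 379 ± 38.4 CPM in the control mice and 369 ± 24.2 CPM in the LLC mice. The arms miR-92a-3p and miR-25-3p made up 93.6 to 97.1% of their seed family, which summed to 658 ± 96.2 and 755 ± 137 CPM. The miR-19 pair is its whole family and summed to 135 ± 23.3 and 165 ± 30.9 CPM. The X-linked paralog cluster had no expressed arm. Of its 10 own arms 5 were at 0 in all 9 libraries, which allows up to 0.383 to 0.601 CPM per library before scaling (3 counts, counting error only), and the highest single count was 11, in miR-20b-5p and in miR-363-3p. Of the 3 seed relatives of miR-92a-3p at other loci, miR-32-5p and miR-92b-3p were expressed, and miR-367-3p was at 0 throughout.

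In LLC against control muscle none of the 10 arms was called by edgeR's quasi-likelihood test (Benjamini-Hochberg adjusted p of at most 0.05 over the 304 miRNAs, and a fold change of at least 1.5), where 0.0% of all expressed miRNAs were called. The adjusted p of the arms ran from 0.296 to 0.599, and the smallest of all 304 was 0.0812. Before adjustment, 1 of the 10 arms had p of at most 0.05, miR-106b-5p, which was lower in the LLC group. With RLE factors, DESeq2 or a minimum of 10 counts in every library the count was also 1, but the arm was miR-19a-3p, which was higher (unadjusted p of 0.0369, 0.033 and 0.0451), so which arm passes and its direction depend on the processing. Among all expressed miRNAs 11.2% were lower and 16.4% differed in either direction at that threshold. The 2 groups did not overlap for 0 of the 10 arms, against 5.92% of the 304 miRNAs. In direction, 8 arms were higher and 2 lower in the LLC group (7 higher when scaled by library totals alone), whereas 46.4% of all expressed miRNAs were higher. The arms were read in the same mice, so their directions are not independent. Fewer cells of a type and less RNA per cell cannot be told apart in whole muscle.

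All 6 arms of miR-17-92 had a higher mean in LLC than in control mice, and none passed the adjusted test. The median of their log2 fold changes was 0.25, against -0.02 over the 304 expressed miRNAs. Scaled by library totals alone these medians were 0.0909 and -0.17, and the 6 arms ran from 0.02 (miR-20a-5p) to 0.26 (miR-19a-3p). The largest of these differences was that of miR-19a-3p. It stood at 11.8, 12.8, 9.21 and 9.29 CPM in C1 to C4, and at 17.9, 11.6, 10.8, 15.6 and 17.2 CPM in L1, L2, L3, L5 and L6. Thus 3 LLC mice lay above all control mice while L2 and L3 lay among them. The log2 fold change was 0.43 (SE 0.201), with a 95% interval of -0.0012 to 0.85, an unadjusted p of 0.0506 and an adjusted p of 0.296 in edgeR.

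For miR-17-5p, the arm that names the cluster, the control mice had 34.7, 36.0, 28.7 and 32.2 CPM and the LLC mice 41.4, 41.4, 34.1, 40.1 and 37.0 CPM. All LLC mice lay above the control mean and 4 of the 5 above every control mouse, with L3 the exception. The log2 fold change was 0.23 (SE 0.131, 95% interval -0.05 to 0.51, edgeR adjusted p = 0.329). An exact permutation test over the 126 splits of the mice, 2-sided, gave p = 0.0397 for this arm, or 0.366 after adjustment over all 304 miRNAs. The smallest p these splits allow is 0.00794. After adjustment the smallest exact p of all 304 miRNAs was 0.329, so the adjusted exact p could not single out an arm.

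Its seed partner miR-20a-5p differed less, by a log2 fold change of 0.17 (SE 0.127, 95% interval -0.10 to 0.44, edgeR adjusted p = 0.463). It stood at 60.5, 60.0, 71.0 and 55.3 CPM in the control mice and at 73.6, 77.2, 61.0, 71.3 and 64.9 CPM in the LLC mice. C3 held the highest control value of miR-20a-5p and the lowest of miR-17-5p, so these seed partners did not rank the control mice alike. As a share of the miR-20a-5p count, miR-17-5p was 40.4% in C3 and 57.3 to 60.0% in the other control mice, and 53.6 to 57.1% in the 5 LLC mice.

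The most abundant arm of the cluster, miR-19b-3p, had 147, 137, 110 and 102 CPM in the control mice and 177, 109, 139, 152 and 174 CPM in the LLC mice. L1, L5 and L6 were above all control mice and L2 and L3 were within their range. Its log2 fold change was 0.27 (SE 0.159, 95% interval -0.06 to 0.61, edgeR adjusted p = 0.339). For miR-92a-3p, an arm known to restrain vessel growth, the values were 54.2, 47.0, 37.7 and 42.3 CPM against 59.6, 41.2, 47.6, 47.6 and 64.2 CPM. L1 and L6 were above all control mice, and the log2 fold change was 0.20 (95% interval -0.14 to 0.54, edgeR adjusted p = 0.494), or 0.12 without C3. The scarce miR-18a-5p ranged from 3.72 to 4.35 CPM in the control mice and from 3.06 to 7.50 CPM in the LLC mice, with 3 LLC mice above and 2 below all control mice (log2 fold change 0.28, 95% interval -0.31 to 0.88, edgeR adjusted p = 0.575). Without single LLC mice its log2 fold change was 0.10 (L5), 0.17 (L2) or 0.44 (L3), and without both L1 and L5 it was 0.12.

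**Figure D2:**
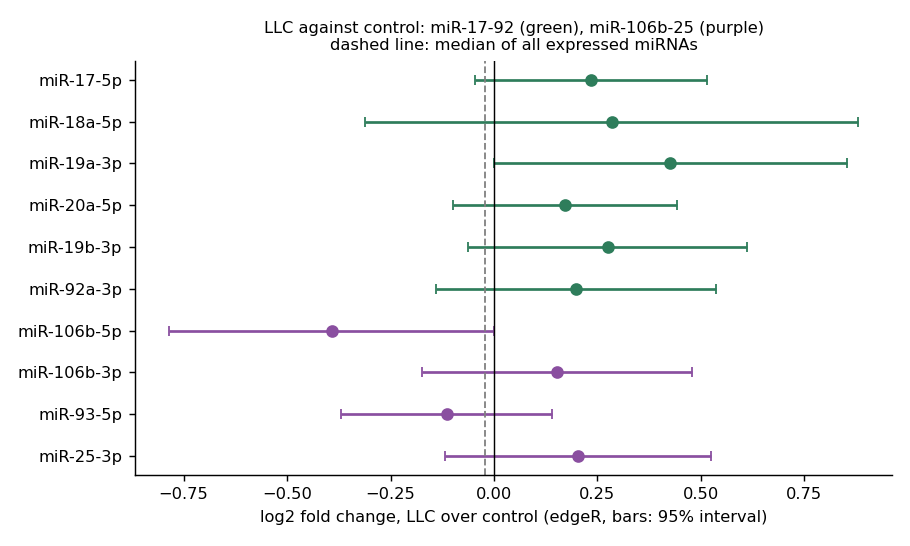
Log2 fold change of each arm, LLC over control, from edgeR, with 95% intervals as bars and the median of the 304 expressed miRNAs (-0.02) as a dashed line. The 6 miR-17-92 arms lie above 0 with intervals that include 0, and the miR-106b-25 arms lie on both sides, with the upper bound for miR-106b-5p just under 0.

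The arms of miR-106b-25 did not share a direction. The median of their log2 fold changes was 0.02 (-0.13 when scaled by library totals alone). The arms miR-25-3p and miR-106b-3p were higher in the LLC group (miR-106b-3p at -0.0068 with library totals alone), and miR-106b-5p and miR-93-5p were lower (miR-93-5p at 0.0121 without L1 and L5). The arm miR-106b-5p, which carries the seed of miR-17-5p, was at 23.0, 16.2, 15.1 and 15.8 CPM in C1 to C4, and at 11.8, 15.8, 15.9, 11.1 and 12.2 CPM in the LLC mice. L1, L5 and L6 lay below every control mouse, while L2 and L3 lay among the 3 lower control mice. The log2 fold change was -0.39 (SE 0.184, 95% interval -0.78 to -3.1e-05), with an unadjusted edgeR p of 0.04998 and an adjusted p of 0.296. The exact permutation test gave p = 0.0873 (0.402 adjusted over all 304 miRNAs). C1 held the highest control value, and without it the log2 fold change was -0.23 with an unadjusted edgeR p of 0.249. With L1 and L5 both left out it was -0.24 (unadjusted edgeR p of 0.214, adjusted 0.811).

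The other arm of the same hairpin, miR-106b-3p, was the tightest of the 10 in the control mice, at 19.8, 19.3, 20.01 and 20.3 CPM, a coefficient of variation of 2.14%. That spread is below the 8.53% that counting error alone gives. In the LLC mice it stood at 27.0, 19.7, 17.7, 23.7 and 22.5 CPM, with L1, L5 and L6 above and L3 below all control mice. The log2 fold change was 0.15 (SE 0.154, 95% interval -0.17 to 0.48, edgeR adjusted p = 0.586). It was 0.07 without L1, 0.25 without L3 and 0.0445 without both L1 and L5.

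For miR-93-5p, a seed partner of miR-17-5p, the control mice had 306, 275, 257 and 228 CPM and the LLC mice 231, 259, 252, 213 and 277 CPM. Only L5 lay below all control mice, and 4 of 5 LLC mice lay below the control mean. The log2 fold change was -0.11 (SE 0.120, 95% interval -0.37 to 0.14, edgeR adjusted p = 0.599). It was -0.04 without C1, -0.07 without L5, -0.07 with RLE factors and -0.25 with library totals alone. For miR-25-3p, the most abundant arm, the values were 685, 602, 572 and 472 CPM against 838, 492, 606, 666 and 752 CPM. L1 and L6 lay above all control mice, and the log2 fold change was 0.20 (SE 0.151, 95% interval -0.12 to 0.52, edgeR adjusted p = 0.465). It was 0.11 without L1, 0.13 without C4, 0.12 without both L1 and L5 and 0.04 with library totals alone.

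The makeup of each cluster was read within libraries, where scaling between libraries has no part. In miR-17-92 the share of miR-19b-3p in the summed counts of the 6 arms was 44.2 ± 2.82% in the control mice and 45.2 ± 4.14% in the LLC mice. The shares of miR-20a-5p (22.4 ± 3.55 and 21.3 ± 3.38%), miR-92a-3p (16.2 ± 1.35 and 15.7 ± 1.46%) and miR-17-5p (11.8 ± 1.00 and 11.9 ± 1.57%) also differed less between group means than the SD among mice. For miR-19a-3p the share was 3.86 ± 0.335% in the control mice and 4.38 ± 0.514% in the LLC mice, a difference slightly larger than either SD, and for miR-18a-5p it was 1.45 ± 0.225 and 1.53 ± 0.643%. In miR-106b-25 the share of miR-93-5p was 29.6 to 31.0% in the 4 control mice and 20.8, 32.9, 28.3, 23.3 and 26.0% in L1, L2, L3, L5 and L6. That of miR-25-3p was 64.1 to 66.3% in the control mice and 62.6 to 75.7% in the LLC mice. For these arms the control mice were nearly alike while the LLC mice lay on both sides of them. The share of miR-106b-5p was 1.74 to 2.23% in the control mice and 1.07 to 2.01% in the LLC mice, and that of miR-106b-3p was 1.91 to 2.76 and 1.98 to 2.59%, where the control mice varied more.

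**Figure D3:**
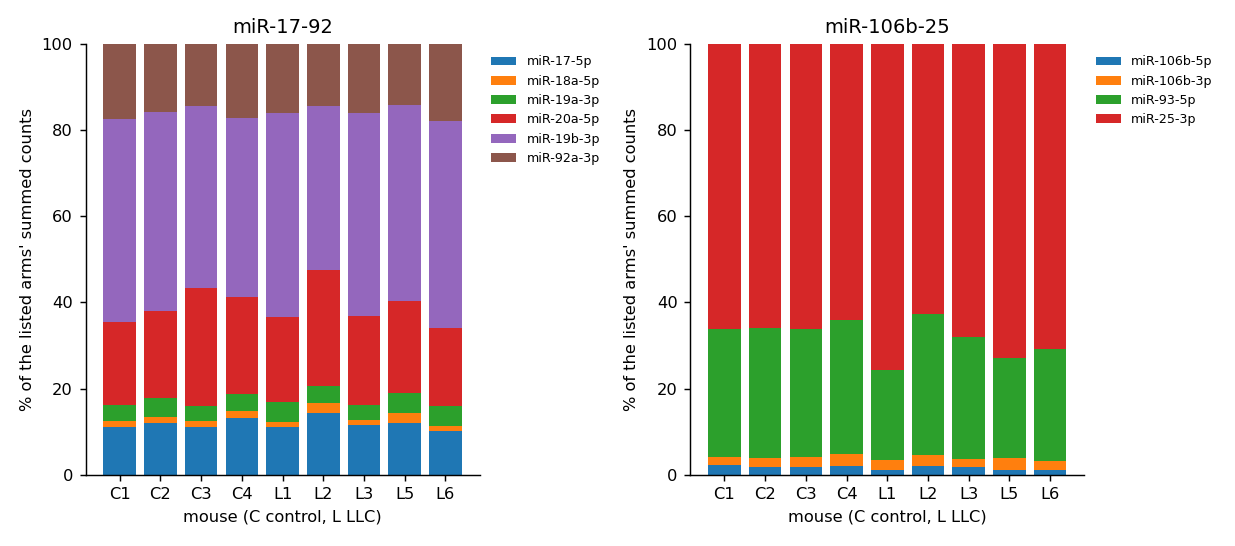
Share of each arm (% of the summed counts of the listed arms of its cluster) in each of the 4 control (C) and 5 LLC (L) mice, as stacked bars. In miR-106b-25 the share of miR-93-5p is 29.6 to 31.0% in the control mice and 20.8 to 32.9% in the LLC mice.

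Ratios between arms of a cluster were tested with the 2-sided exact permutation test, run over all 46056 pairs of expressed miRNAs and adjusted over them. None of the 15 pairs of miR-17-92 and none of the 6 pairs of miR-106b-25 had an unadjusted p of at most 0.05, against 12.2% of all pairs. The lowest p in miR-17-92 was 0.103, for miR-19a-3p to miR-92a-3p (0.422 adjusted). In miR-106b-25 the lowest was that of miR-106b-5p to miR-25-3p, with a log2 ratio of -5.04 ± 0.192 in the control mice and -5.61 ± 0.505 in the LLC mice (exact p = 0.0794, 0.407 adjusted). As a percentage of the miR-25-3p count, miR-106b-5p was 3.36, 2.68, 2.63 and 3.35% in the control mice and 1.41, 3.21, 2.63, 1.66 and 1.62% in the LLC mice. L1, L5 and L6 lay well below all control mice, L3 lay at the lowest control value and L2 within the control range.

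The 5p to 3p ratio of Mir106b was also tested among the 72 hairpins with both arms expressed, of which 9.72% had an unadjusted exact p of at most 0.05. The log2 ratio was 0.22, -0.26, -0.41 and -0.36 in C1 to C4, and -1.19, -0.32, -0.15, -1.09 and -0.88 in the LLC mice. The same 3 LLC mice were low, and L2 and L3 lay within the control range. The mean was -0.20 ± 0.288 in the control mice and -0.73 ± 0.467 in the LLC mice, a difference of -0.52 (exact p = 0.111, 0.315 adjusted over the 72), which was rank 18 of the 72 by size. With L1 and L5 left out the difference was -0.25 (exact p = 0.486). No hairpin of the 72 had a smaller adjusted exact p than 0.315, so this adjustment could not single out a hairpin. The other hairpin with both arms expressed, Mir92-1, had a log2 ratio of miR-92a-1-5p to miR-92a-3p of -3.20 ± 0.126 and -3.51 ± 0.306, a difference of -0.31 (exact p = 0.119, 0.315 adjusted), where L1, L5 and L6 again had the lowest values at -3.74, -3.71 and -3.76. With L1 and L5 left out that difference was -0.17 (exact p = 0.429). Its 3p counts may include those of the X-linked copy.

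For miR-93-5p to miR-25-3p, from neighbouring hairpins of Mcm7, the percentage was 44.7 to 48.3% in the 4 control mice, and 27.5, 52.5, 41.6, 31.9 and 36.8% in the LLC mice. The log2 ratio was -1.12 ± 0.0514 in the control mice and -1.43 ± 0.357 in the LLC mice (exact p = 0.151, 0.454 adjusted). L1, L3, L5 and L6 were below all control mice and L2 above them, so the LLC mice lay on both sides of the control mice. The difference in spread between the groups was not tested.

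**Figure D4:**
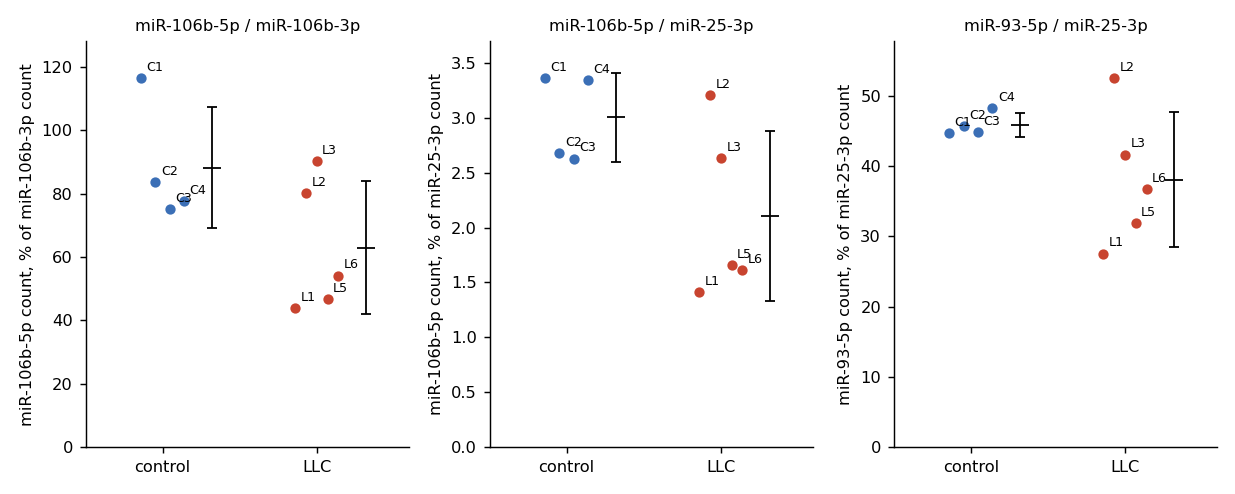
Count of 1 arm as a percentage of the count of another arm in each mouse, for miR-106b-5p to miR-106b-3p, miR-106b-5p to miR-25-3p and miR-93-5p to miR-25-3p, with the mean ± SD of 4 control and 5 LLC mice as bars. L1, L5 and L6 are the 3 lowest of the 9 mice in each panel.

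Coordination was measured as Pearson's r of log2 CPM over the 9 mice after centring each group on its mean, so that a difference between groups does not enter it. The p-values come from 2880 exact permutations of mice within groups, 2-sided, of which the smallest is 0.000347, and were adjusted over all 46056 pairs. The median r was 0.27 for the 15 pairs of miR-17-92 (-0.39 to 0.90), 0.04 for the 6 pairs of miR-106b-25 (-0.63 to 0.65) and 0.16 for the 24 pairs between clusters (-0.45 to 0.96), against -0.0002 for all pairs. Without L1 and L5 the medians were 0.12, 0.22 and 0.18. With library totals alone that of miR-17-92 was 0.44 and that of miR-106b-25 was 0.60. No median over all pairs was computed for that scaling. A positive r with an unadjusted p of at most 0.05 was found for 3 of 15, 0 of 6 and 3 of 24 pairs, where the share over all pairs was 5.95%. No pair passed the adjusted threshold, and the smallest adjusted p was 0.256. None of all 46056 pairs passed, also not those with an r of 1.0, so this adjustment could not single out a pair. The r was positive for 11 of the 15 pairs of miR-17-92, 3 of the 6 of miR-106b-25 and 17 of the 24 between them.

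The 6 pairs with an unadjusted p of at most 0.05 were exactly those among miR-19a-3p, miR-19b-3p, miR-92a-3p and miR-25-3p, 3 arms of miR-17-92 and 1 of miR-106b-25. The highest was miR-19b-3p with miR-25-3p, arms of different chromosomes and seeds, at r = 0.96 (permutation p = 0.000347, 0.256 adjusted) and Spearman's rho = 0.97 (p = 0.000694). Without C4 and L1, the mice farthest from the median of miR-19b-3p, r was 0.96. Next came miR-19b-3p with miR-92a-3p at r = 0.90 (permutation p = 0.00521, 0.287 adjusted) and rho = 0.85 (p = 0.00937), and r was 0.93 without the 2 farthest mice. The near copies miR-19a-3p and miR-19b-3p had r = 0.86 (permutation p = 0.0146, 0.345 adjusted) and rho = 0.77 (p = 0.0257), with r = 0.76 without the 2 farthest mice.

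The other 3 pairs were miR-92a-3p with miR-25-3p at r = 0.83 (permutation p = 0.0142, 0.345 adjusted; rho = 0.82, p = 0.0236), miR-19a-3p with miR-25-3p at r = 0.81 (permutation p = 0.0205, 0.367 adjusted; rho = 0.85, p = 0.0174) and miR-19a-3p with miR-92a-3p at r = 0.80 (permutation p = 0.0344, 0.406 adjusted; rho = 0.80, p = 0.0299). Without the 2 farthest mice these were 0.97, 0.65 and 0.61. The 6 values of r stayed between 0.74 and 0.99 over the other scalings and when single mice were left out. These arms share the same libraries and scaling factors. They also form 2 pairs with a shared seed, miR-19a-3p with miR-19b-3p and miR-92a-3p with miR-25-3p.

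All 4 are 3p arms, a grouping read only after the pairs had been seen and given here without a test. The 10 pairs among the 5 members that are 3p arms had a median r of 0.81 and were all positive (0.44 to 0.96). The 10 pairs among the 5 members that are 5p arms had a median r of 0.07 (-0.45 to 0.65), and the 25 mixed pairs 0.03. Among all expressed miRNAs the median was 0.01 for pairs of 3p arms, -0.01 for pairs of 5p arms and 0.0011 for mixed pairs. The median for the 3p members was 0.74 to 0.84 when single mice were left out and 0.79 without L1 and L5. That for the 5p members was 0.28 without L1 and L5 and also depended on scaling, at 0.63 with library totals alone and 0.34 with totals without the 5 most abundant miRNAs. Pairs with a shared seed had a median r of 0.12 over 8 pairs, against 0.27 over 37 pairs with different seeds.

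In miR-106b-25 the arms of the Mir106b hairpin had a negative r of -0.63 (permutation p = 0.0552, 0.458 adjusted; rho = -0.75, p = 0.0278). Without C1 and L5, the mice farthest from the median of miR-106b-5p, r was -0.90. The arms miR-106b-5p and miR-93-5p had r = 0.65 (permutation p = 0.0896, 0.519 adjusted; rho = 0.74, p = 0.0472), which was 0.12 without the same 2 mice, so this relation rests on them. The neighbours miR-93-5p and miR-25-3p had r = 0.27 (permutation p = 0.5, 0.838 adjusted; rho = 0.27, p = 0.525), which was 0.09 without C1 and L5, the mice farthest from the median of miR-93-5p, and 0.79 without L1 and L5. In miR-17-92, the seed partners miR-17-5p and miR-20a-5p had r = 0.17 (permutation p = 0.674, 0.91 adjusted; rho = 0.20, p = 0.632), but 0.98 without C3 and L2, the mice farthest from the median of miR-17-5p.

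**Figure D5:**
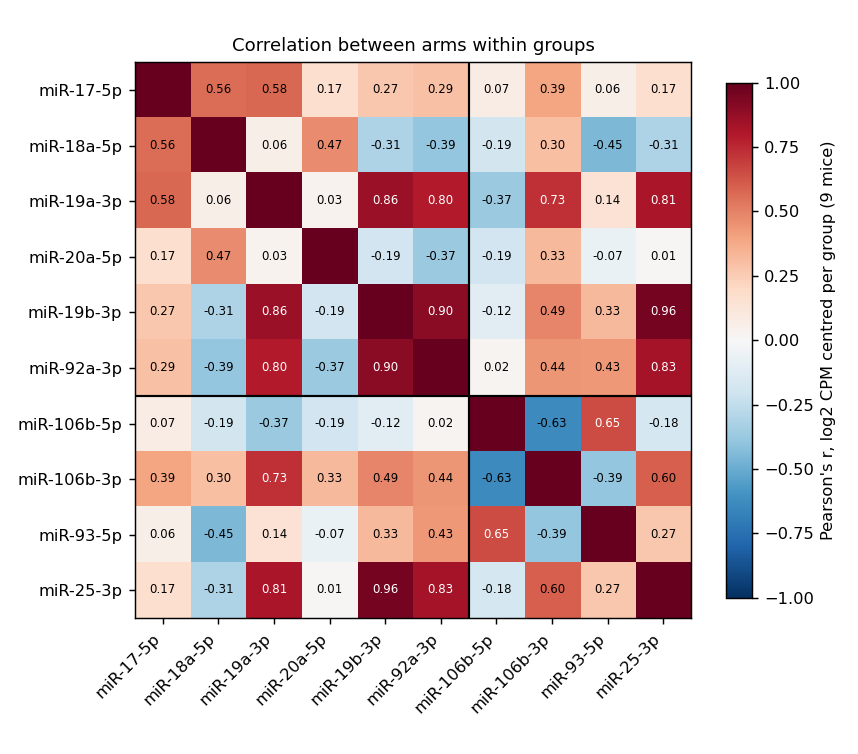
Pearson's r between the 10 arms over 9 mice, from log2 CPM centred on the group means, with lines between miR-17-92 and miR-106b-25. The highest values (0.80 to 0.96) join miR-19a-3p, miR-19b-3p, miR-92a-3p and miR-25-3p across the cluster border, and the lowest (-0.63) joins the arms of Mir106b.

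The summed CPM of the 6 miR-17-92 arms was 279 ± 31.3 in the control mice and 330 ± 38.7 in the LLC mice. Likeness to this sum was read as r over the 9 mice after centring each group on its mean, so the group difference does not enter it. Outside the clusters and their relatives, the most alike expressed miRNAs were miR-339-5p (r = 0.88), miR-3071-5p (r = 0.85) and miR-146b-5p (r = 0.84). The 4 miR-106b-25 arms summed to 887 ± 123 and 952 ± 131 CPM, and most like them were miR-3071-5p (r = 0.94), miR-101a-3p (r = 0.92) and miR-194-5p (r = 0.90). These 5 miRNAs were chosen as the highest of all and their r carries no test. None of them passed the adjusted test between groups (edgeR adjusted p = 0.214 for miR-146b-5p and 0.789 to 0.998 for the others).

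The relatives of these arms gave no call either. The log2 fold change was -0.27 for miR-32-5p (edgeR adjusted p = 0.511) and 0.26 for miR-92b-3p (edgeR adjusted p = 0.396), both of which carry the seed of miR-92a-3p. The minor arm miR-92a-1-5p had a log2 fold change of -0.11 (edgeR adjusted p = 0.789). Among markers of other cell types, the 3 erythroid miRNAs, all expressed, summed to 215 to 325 CPM in the control mice and to 92.4, 189, 220, 110 and 150 CPM in L1, L2, L3, L5 and L6. The 3 LLC mice with the least erythroid signal were thus the same that had the lowest miR-106b-5p and the highest miR-19a-3p and miR-19b-3p, and its part in these differences was not tested. The 6 leukocyte miRNAs, all expressed, summed to 697 to 807 CPM in the control mice and 594 to 746 CPM in the LLC mice. Most of that sum was miR-150-5p, a lymphocyte miRNA, at 426 to 514 CPM in the control mice and 355 to 409 CPM in the LLC mice (edgeR adjusted p = 0.10). The myeloid miR-223-3p went the other way, at 18.2 to 22.8 and 23.0 to 42.7 CPM (edgeR adjusted p = 0.0936), as did miR-146a-5p at 4.35 to 6.91 and 4.07 to 15.4 CPM (edgeR adjusted p = 0.273). For miR-142a-3p, miR-155-5p and miR-142a-5p the log2 fold changes were 0.32, 0.07 and 0.02. Of this list only miR-150-5p was thus lower in the LLC group (-0.38). The 2 endothelial miRNAs summed to 26211 to 33929 and 24162 to 29972 CPM, and the 3 fibroblast miRNAs to 1939 to 2371 and 1759 to 3300 CPM, with no defining marker of these lists at 0. Most of the endothelial sum was miR-126a-5p (log2 fold change -0.09), and miR-126a-3p had -0.31 (edgeR adjusted p = 0.284). Most of the fibroblast sum was miR-199a-3p (0.08), which was highest in L5 at 3122 CPM. By contrast, miR-199a-5p (-0.33, edgeR adjusted p = 0.214) and miR-214-3p (-0.26, edgeR adjusted p = 0.335) were lower in the LLC group.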

How the data were processed

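Total RNA of TA muscle (RIN above 8, 1000 ng) was made into TruSeq small RNA libraries and sequenced as 50-bp single reads. The authors aligned reads with Bowtie to mature miRBase sequences, allowing no mismatch in the seed of 8 bases and keeping all best matches, and deposited raw counts per mature miRNA, 1 table per library, without normalization. The LLC mouse L4, dropped by the authors because it failed their quality filters, and the mRNA-Seq data were not analysed here. Groups and replicate numbers were taken from the labels, 0 sample columns were left unmapped, and each library is a separate mouse as far as the labels say.

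Counts were tested in R 4.3.3 with edgeR 4.0.16 (TMM, quasi-likelihood F test, no block) on the 304 miRNAs that exceeded 32 counts in 1 library or more. Benjamini-Hochberg adjustment covered all of them, and calls needed an adjusted p no higher than 0.05 together with a 1.5-fold difference. The filter and the fold threshold follow the study. The test does not, as the study used DESeq2 and reported differentially expressed miRNAs where edgeR called none. Log2 CPM used a prior count of 2, arm ratios 0.5 counts added to each arm, and ratios and correlations were run over every expressed miRNA. Rank correlations used ranks of the centred values, centred again per group. The scripts were checked on simulated counts. With the median dispersion given to every miRNA, edgeR called 43.5% of true 1.5-fold and 97.8% of true 2-fold differences. Of unchanged miRNAs it called 0.0859%. A true 1.5-fold difference lies at the fold threshold itself, and the dispersions of single arms were not simulated. Pairs of libraries of a group differed by a chi-square of at least 124 per degree of freedom, so none was counted as a copy. Total counts of 4992339 to 7833161 per library set the precision, and reads carry no molecular identifiers, so floors cover counting error only.

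The 10 arms and the lists beside them (minor arms, X-linked arms, seed relatives, cell type markers) were chosen with earlier results of these data known. All 10 arms are named whatever their values, with the 3 expressed miRNAs most alike per cluster. Up to 4 values per list were planned, and more are given for some lists. The fits were repeated with RLE factors, with unscaled library totals, with totals that leave out the top 5 miRNAs, in DESeq2 1.42.0 and in limma 3.58.1 with voom. They were also repeated with no filter, with a minimum of 10 counts in every library, with a replicate block, and without single mice. Leaving out L1 and L5 together, the ratios between arms of different hairpins and the grouping by 5p and 3p arm were added after seeing the data. Mature sequences and hairpin positions are those of RefSeq and host genes those of GENCODE, both on GRCm38, whereas the counts were made against mature sequences and carry no genome build. Figures were drawn with matplotlib 3.10.9.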

Additional observations from a re-analysis of the deposited data

Results flagged for a closer look

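In groups of 4 or 5 mice, the gap of the highest or lowest value to its neighbour was set against the range of the group, for the 10 arms and for both 5p to 3p ratios. Of 24 groups of values 2 had a gap beyond Dixon's 95% critical value, where chance flags about 1 in 20. The miR-106b-5p level of C1, at 23.0 CPM, lay above 16.2 CPM in the next control mouse, a gap of 0.861 of the range. The log2 ratio of miR-92a-1-5p to miR-92a-3p of C4, at -3.02, lay above -3.25 in the next control mouse, a gap of 0.859 of the range.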

How the results depend on the processing

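Over 18 alternatives for each of the 10 arms, 178 of 180 log2 fold changes kept their direction and none passed the adjusted threshold. The exceptions were miR-106b-3p with library totals alone (-0.0068) and miR-93-5p without L1 and L5 (0.0121). Library totals alone put the median of all 304 miRNAs at -0.17, against -0.02 with TMM, and the cluster medians at 0.0909 (miR-17-92) and -0.13 (miR-106b-25). Relative to the median of all, these were 0.26 and 0.04, against 0.28 and 0.04 with TMM, and all 6 miR-17-92 arms stayed above the median of all in every alternative. The alternatives reuse the same mice and the arms share libraries, so these counts of directions are not independent. The count of arms at an unadjusted p of at most 0.05, 1 by TMM, was 0 with totals without the top 5 miRNAs, with limma-voom, with a replicate block and without L1 and L5, 2 with no filter, and 0 to 3 with each mouse left out, lowest without C4, L1, L5 or L6 and highest without L2 or L3. Calls among all miRNAs, 0 in edgeR with 50 at an unadjusted p of at most 0.05, were 8 with DESeq2, 22 with no filter, 1 without L1 and L5, and 0 to 8 with each mouse left out (1 without L1, 8 without L3), and none was a member. The number of arms whose groups did not overlap was 0 to 1 with each mouse left out. The median r of miR-17-92 was 0.50 when values were not centred, 0.44 with library totals alone and 0.16 to 0.37 with each mouse left out. That of miR-106b-25 was 0.60 with library totals alone and -0.20 to 0.34 with each mouse left out, negative without C1 (-0.20) or C4 (-0.17) and when values were not centred (-0.14). The cluster medians of the log2 fold change were 0.21 to 0.31 and -0.02 to 0.07 with each mouse left out.

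The replicate numbers 1 to 3 occur in both groups but name different animals, and the deviations of same-numbered mice correlated at -0.23, -0.09 and -0.25, so the samples were not treated as paired. With the replicate block, the median log2 fold change was 0.18 for miR-17-92 and -0.07 for miR-106b-25, that of miR-25-3p was 0.03, and 15 miRNAs had an unadjusted p of at most 0.05.

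Depth limits miR-18a-5p and the minor and X-linked arms, which held few counts. The 95% intervals of miR-18a-5p, miR-19a-3p, miR-19b-3p and miR-106b-5p include a 1.5-fold difference.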
